A study of Homo sapiens with 12 samples.

Results

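In a poly(A) RNA-seq experiment on 22Rv1 cells, the 4 libraries that carry replicate number 1 were compared with the 8 libraries numbered 2 and 3 within treatment groups. Hypoxia and glycolysis genes, and also ribosomal protein genes, were prominent among the genes that were higher in number 1. The 12 libraries of the study were divided by the number at the end of their titles: number 1 (4 libraries, called the first replicates here) and numbers 2 and 3 (8 libraries, the later replicates), with 1 library of each number in each of 4 treatment groups. Treatment was kept in the comparison as a covariate, so that each first replicate was compared with the later replicates of its own treatment. The labels describe the replicates as independent but do not say what a number stands for, such as a day, a passage or a batch.

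22Rv1 is an established human prostate carcinoma line that grows without added androgen. All 12 cultures are labelled WT and were kept in RPMI-1640 with serum in an incubator at 5% CO2, and the protocol mentions no change of oxygen. A day after seeding, cells received vehicle, enzalutamide (an androgen receptor antagonist), a compound described as an autophagy-activating ligand (called the ligand here), or a compound described as a degrader directed at the androgen receptor (the degrader), each for 24 hours. The labels give no dose.

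Cells sense oxygen through hydroxylases of the EGLN family, which mark the alpha subunits of hypoxia-inducible factor (HIF) for destruction by the VHL ubiquitin ligase. When oxygen is short the marking slows, HIF accumulates and binds short DNA elements with the core ACGTG or GCGTG, and genes for glucose uptake, glycolysis, lactate export, angiogenesis and mitochondrial quality control are transcribed. HIF alpha is regulated mainly as a protein, so that the mRNA of its target genes is the usual readout in RNA-seq. In culture dishes the pathway is known to respond to cell density and medium depth as well as to the oxygen in the incubator.

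The libraries held 55547270 to 77208794 counted reads, with 59373637 to 77208794 in the first replicates. Of 18668 genes listed, 17801 passed a filter on low counts and were tested. Counts are given below as counts-per-million (CPM) after scaling by trimmed mean of M-values (TMM). A difference is the log2 value of the first replicates minus that of the later ones, from edgeR's quasi-likelihood test, with its standard error (SE), and a gene was called when its Benjamini-Hochberg adjusted p was under 0.05. A list of 88 hypoxia and glycolysis genes was examined in most depth. Of these, 84 were listed, passed the filter and were tested, and SLC2A3, PPP1R3C, COX4I2 and CA9 were not listed in the deposited table. No gene of that table has a count of 0 in any library, so that a gene not listed, here or among the markers, may still have had reads in some libraries.

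Promoters of the 5 called list members with the largest differences and an entry in the RefSeq promoter table (GRCh38.p14) are shown because these genes moved together. Each runs 5′ to 3′ from 250 bases before to 50 bases after a transcript start, 300 bases in all, and capitals mark ACGTG or GCGTG read on either strand, so that their reverse complements CACGT and CACGC are in capitals too and the palindrome CACGTG counts once for each strand.
ANKRD37 (chr4:185396591-185396890, plus strand): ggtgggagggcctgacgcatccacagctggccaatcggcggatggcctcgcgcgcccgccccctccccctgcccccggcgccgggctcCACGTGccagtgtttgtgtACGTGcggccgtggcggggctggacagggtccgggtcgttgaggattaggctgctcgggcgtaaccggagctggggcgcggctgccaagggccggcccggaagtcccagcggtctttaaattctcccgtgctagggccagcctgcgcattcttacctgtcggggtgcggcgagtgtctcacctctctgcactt
NDUFA4L2 (chr12:57240713-57241012, minus strand): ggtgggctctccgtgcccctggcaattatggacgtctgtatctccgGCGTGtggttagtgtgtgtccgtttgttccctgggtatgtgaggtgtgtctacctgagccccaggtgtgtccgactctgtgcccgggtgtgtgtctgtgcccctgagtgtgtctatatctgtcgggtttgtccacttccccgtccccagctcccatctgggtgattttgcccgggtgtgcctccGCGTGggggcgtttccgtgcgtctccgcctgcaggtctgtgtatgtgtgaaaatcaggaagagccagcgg
BHLHE40 (chr3:4979187-4979486, plus strand): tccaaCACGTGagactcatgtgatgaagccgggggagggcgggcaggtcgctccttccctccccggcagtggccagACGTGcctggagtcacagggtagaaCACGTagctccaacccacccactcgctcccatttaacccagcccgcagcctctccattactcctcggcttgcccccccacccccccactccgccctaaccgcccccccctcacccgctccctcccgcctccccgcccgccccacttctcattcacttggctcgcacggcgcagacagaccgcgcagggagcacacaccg
DDIT4 (chr10:72273674-72273973, plus strand): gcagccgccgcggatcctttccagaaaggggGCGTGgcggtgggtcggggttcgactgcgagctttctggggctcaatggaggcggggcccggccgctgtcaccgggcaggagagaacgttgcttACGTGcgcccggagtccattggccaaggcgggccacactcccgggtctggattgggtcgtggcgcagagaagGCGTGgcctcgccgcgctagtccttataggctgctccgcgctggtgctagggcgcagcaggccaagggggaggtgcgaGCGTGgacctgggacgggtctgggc
SLC16A3 (chr17:82228185-82228484, plus strand): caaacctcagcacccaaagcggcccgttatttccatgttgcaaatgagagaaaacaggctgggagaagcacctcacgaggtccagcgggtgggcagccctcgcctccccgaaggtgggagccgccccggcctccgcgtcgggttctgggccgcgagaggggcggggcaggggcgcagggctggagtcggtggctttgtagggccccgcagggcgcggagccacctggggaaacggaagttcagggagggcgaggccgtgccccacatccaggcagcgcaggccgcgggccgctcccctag

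By that count the ANKRD37 window held ACGTG 3 times and the BHLHE40 window 4 times, NDUFA4L2 held GCGTG 2 times, DDIT4 held ACGTG once and GCGTG 3 times, and SLC16A3 held neither. Among 33 of the called members with an entry in the table, 16 (48.5%) held ACGTG, 20 (60.6%) held GCGTG and 28 (84.8%) held one or the other. The same shares over all 27305 promoters of the table were 21.6%, 36.3% and 48.4%. Over the 12859 promoters of genes tested they were 26.2%, 49.6% and 61.9%, and over the 70 tested list members 42.9%, 51.4% and 71.4%. All genes called higher gave 33.5%, 51.6% and 68.2%, and genes called lower 22.3%, 55.1% and 65.4%. The list was built with known HIF targets among its members, so its excess over all promoters is not evidence about the call. A match describes letters in a window and is not evidence of binding.

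ANKRD37, which encodes an ankyrin-repeat protein and is a well-known HIF target, was low throughout, at 1.67 CPM or less. It stood at 1.67, 0.829 and 0.969 CPM in vehicle numbers 1, 2 and 3, at 0.930, 0.361 and 0.330 CPM with enzalutamide, at 1.09, 0.535 and 0.611 CPM with the ligand and at 0.726, 0.292 and 0.630 CPM with the degrader. Number 1 was the highest of the 3 libraries in all 4 groups, although the degrader number 1 lay below the later vehicle libraries. The difference was 0.97 ± 0.18 log2 (SE), a fold of 1.96 with a 95% interval of 1.52 to 2.53 (adjusted p = 0.00529).

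NDUFA4L2, a mitochondrial protein that lowers respiratory chain activity in hypoxia, was at 65.5, 27.8 and 37.97 CPM in vehicle numbers 1, 2 and 3. The levels were 29.2, 12.9 and 21.9 CPM with enzalutamide, 33.0, 13.5 and 24.1 CPM with the ligand, and 26.2, 16.2 and 14.9 CPM with the degrader. Here too number 1 led each group. The difference was 0.83 ± 0.19 log2 (SE, adjusted p = 0.0423), and the call was lost in 9 of the 12 fits that each left out 1 library, among them those without any one of the vehicle or degrader libraries.

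DDIT4, an inhibitor of mTORC1 signalling induced by hypoxia and other stresses, was at 93.2, 45.8 and 57.5 CPM in vehicle numbers 1, 2 and 3 and at 52.9, 25.9 and 30.6 CPM with enzalutamide. With the ligand it was at 70.0, 37.2 and 46.8 CPM, and with the degrader at 120.6, 97.0 and 82.5 CPM. The first replicate was highest in each group, and the gap was narrowest with the degrader (0.43 log2, against 0.75 to 0.91 in the other 3 groups). Across groups the difference was 0.73 ± 0.10 log2 (SE, adjusted p = 0.0083).

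SLC16A3, which carries lactate out of glycolytic cells, was at 70.8, 42.3 and 49.1 CPM in vehicle numbers 1, 2 and 3, at 50.5, 27.3 and 35.8 CPM with enzalutamide, at 49.1, 30.1 and 40.2 CPM with the ligand, and at 36.5, 22.4 and 20.1 CPM with the degrader. No later replicate reached the first replicate of its own group. The difference was 0.64 ± 0.09 log2 (SE, adjusted p = 0.00588).

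BHLHE40, a transcriptional repressor induced through HIF, was low throughout. It was at 3.15, 1.21 and 2.07 CPM in vehicle numbers 1, 2 and 3, at 1.49, 0.655 and 0.918 CPM with enzalutamide, at 1.88, 0.873 and 1.55 CPM with the ligand, and at 3.58, 2.40 and 1.74 CPM with the degrader. The first replicate was the highest in each group, and the difference was 0.82 ± 0.16 log2 (SE, adjusted p = 0.00636), not called without vehicle number 1.

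**Figure D1:**
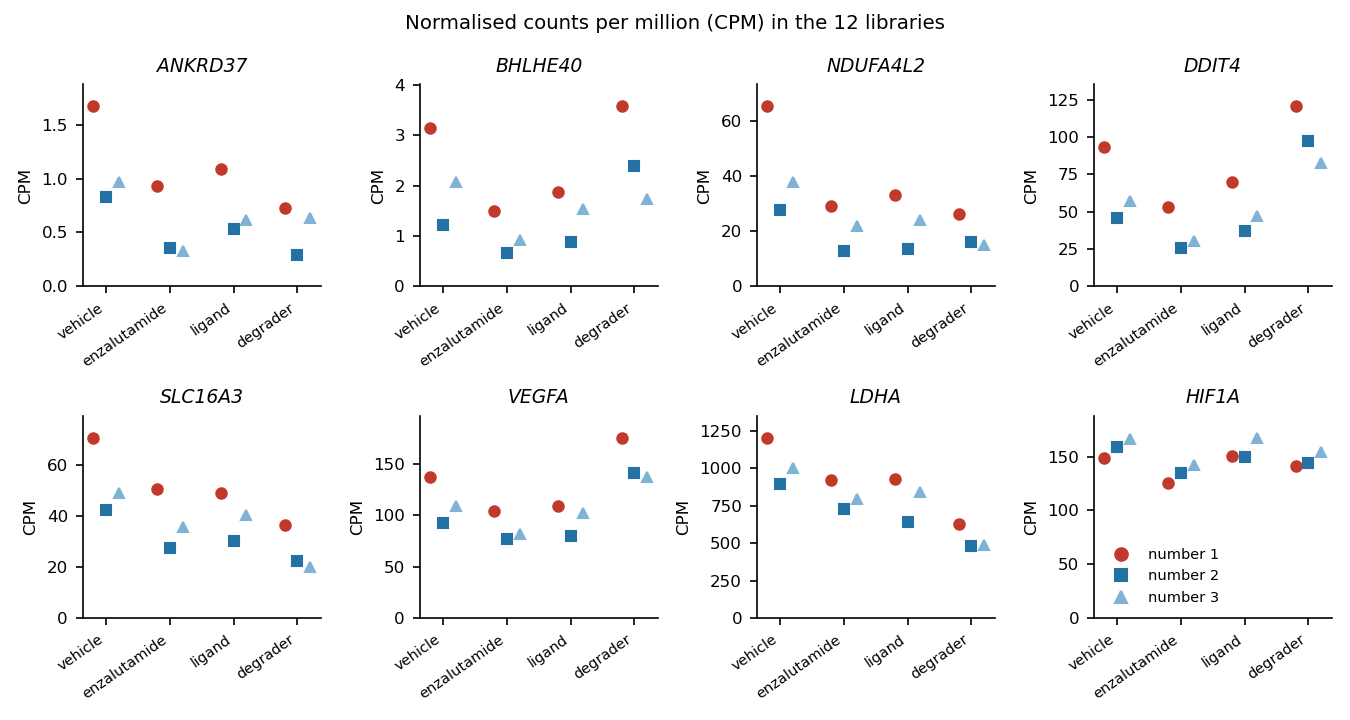
Normalised CPM (linear axis from 0) of 8 genes in each of the 12 libraries, by treatment group on the x axis; circles are replicate number 1, squares number 2 and triangles number 3, with 1 library per point. For the 7 hypoxia-induced genes the circle is the highest point of each group, whereas for HIF1A it is the lowest in 3 of the 4 groups.

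Over the whole list, 41 of 84 genes were higher in the first replicates and 0 lower, where 3.79% of all genes tested were called higher and 3.81% lower. The 41 are 48.8% of the tested members. The median difference over the 84 was 0.18 log2, against 0.00 over all genes, and 74 of the 84 estimates were above 0. Because the list was chosen with earlier results of these libraries known, its direction is not independent evidence.

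Within treatment groups the list median was 0.20 log2 for vehicle, 0.21 for enzalutamide, 0.17 for the ligand and 0.20 for the degrader. Number 1 exceeded both later libraries in all 4 groups for 44 of 84 members (52.4%), where 6.38% of all genes tested did so and 6.17% lay below both in all 4, and 37 of those 44 were called. The mean log2 CPM over the list was 5.78, 5.45 and 5.59 in vehicle numbers 1, 2 and 3, 5.52, 5.19 and 5.31 with enzalutamide, 5.56, 5.21 and 5.46 with the ligand, and 5.58, 5.33 and 5.34 with the degrader. Number 1 had the highest list mean of each group and number 2 the lowest, and number 3 stood closer to number 1 with the ligand than in the other groups.

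**Figure D2:**
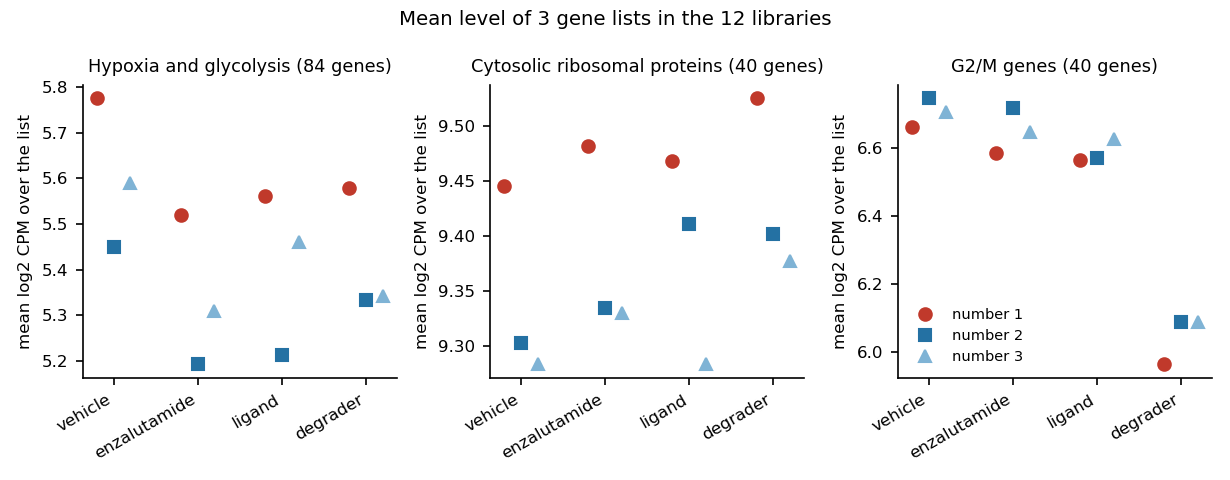
Mean log2 CPM over the members of 3 gene lists in each library, by treatment group; circles are replicate number 1, squares number 2 and triangles number 3. For hypoxia and glycolysis genes (left) and ribosomal protein genes (middle) the circle is highest in each group, and for G2/M genes (right) it is lowest in each group.

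The number of called members depended on single libraries. Without vehicle number 1 the count was 15 of 84, without enzalutamide number 1 it was 23 and without degrader number 1 it was 24, and without ligand number 2 it was 55 higher and 3 lower (HIF1A, RBPJ and VHL). Over all genes tested, the first 3 of these fits gave 73, 115 and 140 higher. The fit without ligand number 2 gave 2389 higher and 2267 lower. The median of the list moved little, from 0.17 to 0.20 log2 over the 12 fits that each left out 1 library. Calls of 15 members held in every one of those 12 fits: ALDOC, ANGPTL4, ENO1, FAM162A, GAPDH, HK2, KDM3A, MAFF, P4HA2, PGAM1, PKM, PLOD1, SLC16A3, SLC2A1 and TPI1. VEGFA, ADM, ANKRD37 and DDIT4 each lost their call in 1 of these fits, the one without vehicle number 1.

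In the role named HIF regulation, 2 of 11 were higher and 0 lower. These were the repressors BHLHE40 and BHLHE41 (0.38 ± 0.10 log2, adjusted p = 0.0285), which act downstream of HIF and not on its oxygen sensing. HIF1A, which encodes the oxygen-regulated alpha subunit, was at 149, 159 and 167 CPM in vehicle numbers 1, 2 and 3, at 125.6, 135 and 142 CPM with enzalutamide, at 151, 149.6 and 168 CPM with the ligand, and at 142, 144 and 155 CPM with the degrader. Number 1 was the lowest library in 3 groups and lay between the others in the ligand group, and the difference of -0.10 ± 0.03 log2 did not pass the test (adjusted p = 0.0702). EGLN1, a hydroxylase that is also a HIF target, differed by 0.16 ± 0.05 log2 (adjusted p = 0.0609) and EGLN3 by 0.36 ± 0.15 log2 (adjusted p = 0.158).

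Glucose uptake and glycolytic enzymes had the highest share of called members of the 7 roles. Of 18 genes tested, 13 were higher and 0 lower, and all 18 estimates were above 0 (median 0.20 log2). SLC2A1, the main glucose transporter of many tumour cells, was at 78.4 to 98.6 CPM in the first replicates and at 60.1 to 82.5 CPM in the later ones (median 66.1 CPM), so that the ranges across treatments overlapped although number 1 was highest within each group. The SLC2A1 difference was 0.35 ± 0.05 log2 (adjusted p = 0.0013).

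Among the called enzymes the largest differences were those of PFKFB3, which makes the activator of phosphofructokinase (0.55 ± 0.09 log2, adjusted p = 0.0119, not called without number 1 of vehicle, enzalutamide or degrader), and the aldolase ALDOC (0.50 ± 0.07 log2, adjusted p = 0.00421). GAPDH, the most abundant of the group with a median of 7368 TPM (transcripts-per-million, the authors' length-normalised level), differed by 0.22 ± 0.03 log2 (adjusted p = 0.0013). Hexokinase HK2 differed by 0.20 ± 0.04 log2, TPI1 by 0.19 ± 0.02 log2, PKM by 0.18 ± 0.03 log2 and PGAM1 by 0.16 ± 0.03 log2, and each of these 4 was called.

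PGK1, another glycolytic kinase and a standard HIF target, showed 0.36 ± 0.09 log2 and PFKFB4, a relative of PFKFB3, 0.89 ± 0.23 log2, with number 1 above both later libraries in all 4 groups for both, yet neither passed edgeR's test (adjusted p = 0.0561 and 0.0611). DESeq2 called both (adjusted p = 0.00699 and 0.00439). Of the members not called by edgeR it also called BNIP3, P4HA1, PPFIA4, EGLN1 and EFNA1 as higher and HIF1A as lower, 8 in all. For the called members ANKRD37, BHLHE40, SPAG4 and STC1, DESeq2 gave no adjusted p. PFKFB4 was at 33.5 to 49.8 CPM in the first replicates and at 11.9 to 33.0 CPM in the later ones, and its number 2 minus number 3 estimate was -0.53 log2 (adjusted p = 0.367).

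The role named pyruvate and lactate handling, in which glycogen enzymes were also placed, held 4 higher and 0 lower of 7. Besides SLC16A3 these were LDHA, the enzyme that turns pyruvate into lactate, at 1205, 893 and 1004 CPM in vehicle numbers 1, 2 and 3 (0.33 ± 0.07 log2, adjusted p = 0.0195, not called when any 1 of the 4 first replicates was left out), the glycogen enzyme GBE1 (0.17 ± 0.05 log2) and the glycogen synthase GYS1 (0.16 ± 0.03 log2). The GBE1 call was lost in 9 of the 12 fits that each left out 1 library, and the GYS1 call in 2. PDK1, which shuts pyruvate out of mitochondria, was at 22.9 to 34.7 CPM in the first and 16.7 to 29.3 CPM in the later replicates, a difference of 0.27 ± 0.09 log2 that did not pass (adjusted p = 0.0984).

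Of the hypoxia-induced regulators of mitochondria and autophagy, 3 of 6 were higher and 0 lower: NDUFA4L2, the mitochondrial protein FAM162A (0.29 ± 0.04 log2, adjusted p = 0.00177) and the MYC antagonist MXI1 (0.19 ± 0.04 log2, adjusted p = 0.0115). BNIP3, a mitophagy receptor, was at 145.8, 80.9 and 102 CPM in vehicle numbers 1, 2 and 3 and at 103, 39.5 and 86.1 CPM in the ligand group. Its estimate of 0.69 ± 0.20 log2 missed the threshold (adjusted p = 0.0813).

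Secreted and surface proteins counted 5 higher and 0 lower of 13. VEGFA, the main angiogenic growth factor, was at 138, 92.3 and 109 CPM in vehicle numbers 1, 2 and 3, at 104, 77.1 and 81.8 CPM with enzalutamide, at 109, 79.7 and 102 CPM with the ligand, and at 176, 141 and 137 CPM with the degrader. The first replicate led each group, narrowly over number 3 with the ligand, and the difference was 0.36 ± 0.06 log2 (adjusted p = 0.00588). The hormone STC1 (0.49 ± 0.11 log2), the vasodilator ADM (0.45 ± 0.09 log2), the lipase inhibitor ANGPTL4 (0.39 ± 0.05 log2) and the ephrin EFNA3 (0.21 ± 0.04 log2) were the other called members.

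Among oxygen-dependent hydroxylases and demethylases, 4 of 9 were higher and 0 lower. They were the collagen prolyl hydroxylase P4HA2 (0.40 ± 0.07 log2), the histone demethylase KDM3A (0.32 ± 0.05 log2), the collagen lysyl hydroxylase PLOD1 (0.30 ± 0.04 log2, adjusted p = 0.00125) and the demethylase KDM4B (0.14 ± 0.03 log2). P4HA2 and PLOD1 separated the sets across treatments: PLOD1 was at 72.3 to 86.8 CPM in the 4 first replicates and at 58.9 to 69.2 CPM in the 8 later ones. P4HA1, an alternative catalytic subunit of the same kind of enzyme, showed 0.31 ± 0.09 log2 (adjusted p = 0.0631).

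The remaining 20 hypoxia-induced genes held 10 higher and 0 lower. With ANKRD37 and DDIT4 these included the stress-regulated NDRG1 (0.52 ± 0.10 log2, adjusted p = 0.022), the small MAF protein MAFF (0.44 ± 0.06 log2, adjusted p = 0.00153), SPAG4 (0.43 ± 0.11 log2) and the lipid droplet protein HILPDA (0.21 ± 0.04 log2). PPFIA4, named here for having the largest estimate of the list (1.05 ± 0.35 log2), was not called (adjusted p = 0.123). It was at 15.9, 7.77 and 10.5 CPM in vehicle numbers 1, 2 and 3 but at 8.05, 2.41 and 7.64 CPM with the ligand, where number 3 came close to number 1.

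Altogether 43 members were not called, of which 33 had estimates above 0, with a range from -0.15 to 1.05 log2. In 7 of the 43, number 1 was above both later libraries in all 4 groups. The 4 called members in which it was so in only 3 groups were GPI, PFKL, GBE1 and ALKBH5.

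**Figure D3:**
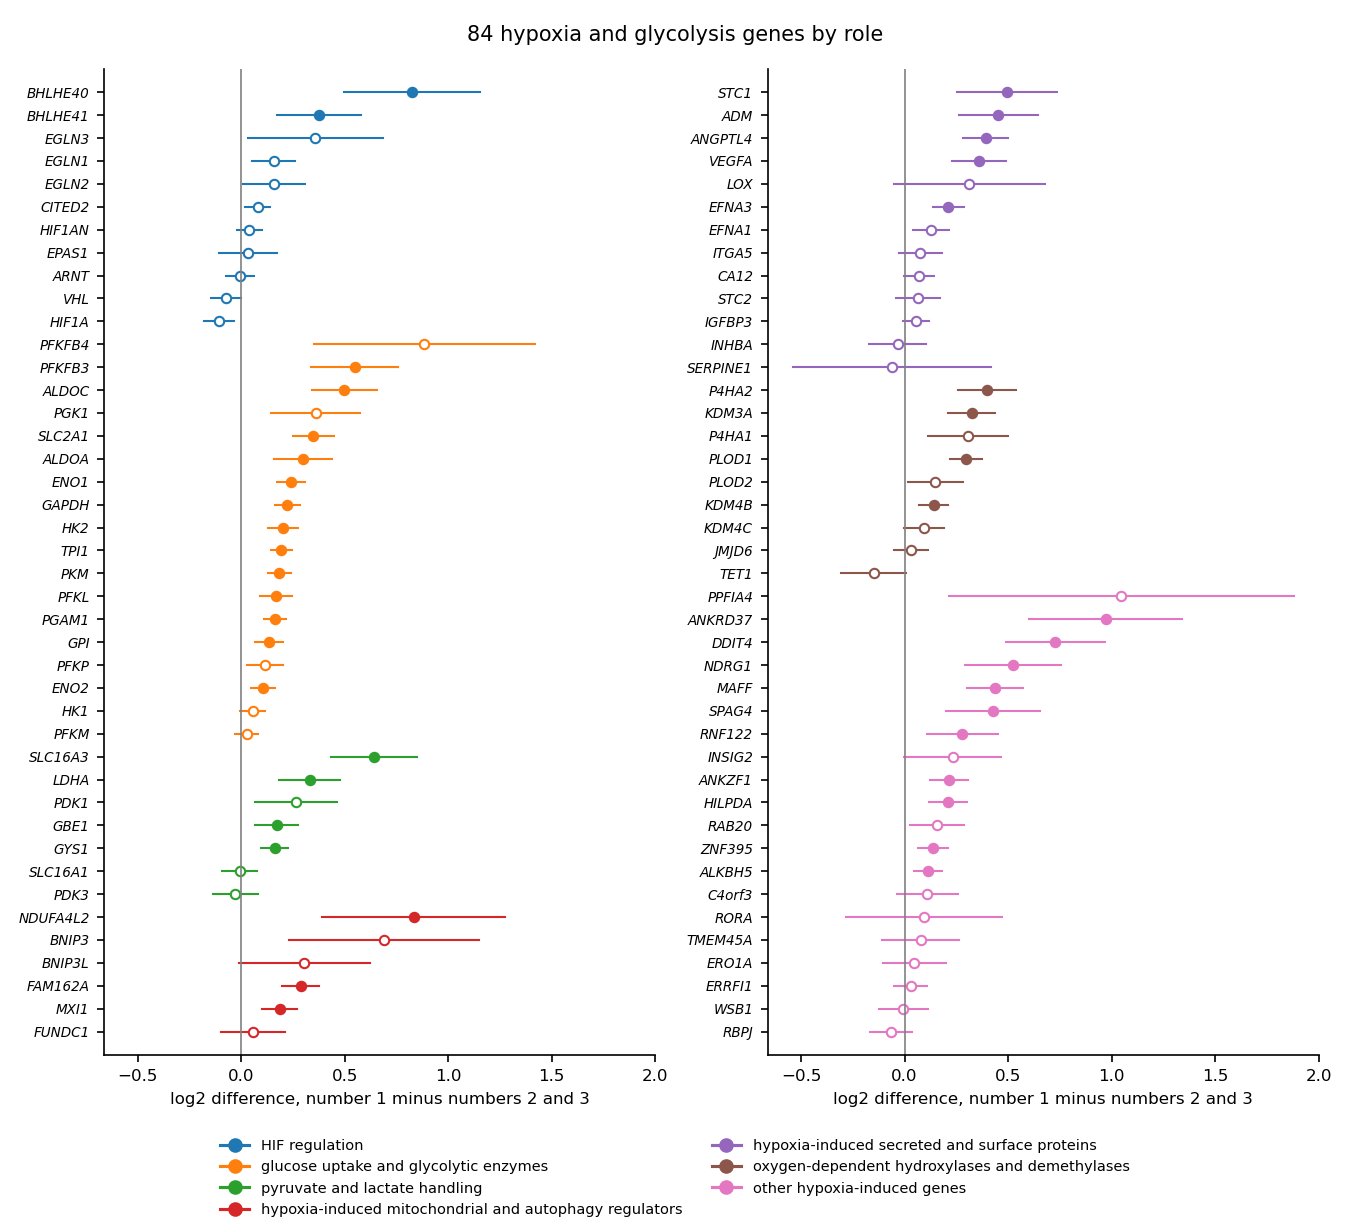
Log2 difference of first minus later replicates (x axis) for the 84 list members tested, ordered by role (colour) and size; bars are 95% confidence intervals, filled points were called at an adjusted p under 0.05 and open points were not. The 41 filled points all lie to the right of 0, and PPFIA4, at 1.05 log2, has the largest estimate but an open point.

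Numbers 2 and 3 were also compared with number 1 one at a time. Number 1 exceeded number 2 for 41 of 84 members and fell below it for 0, where 1.54% of all genes were called between these numbers and 1.02% were higher in number 1. Number 1 exceeded number 3 for 40 members and fell below it for 2, HIF1A (-0.16 log2, adjusted p = 0.00249) and RBPJ (-0.13 log2, adjusted p = 0.0487), where 18.1% of all genes were called and 8.62% were higher in number 1. The list medians of these 2 comparisons, which share the number 1 libraries, were 0.23 and 0.16 log2.

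Over all genes, then, number 1 differed from number 3 at 3223 genes and from number 2 at 274, while the list differed by more from number 2. Between numbers 2 and 3, 2 members were called, PFKFB3 (-0.28 log2, adjusted p = 0.0354) and the collagen crosslinker LOX (-0.51 log2, adjusted p = 0.0401), both lower in number 2, where 0.315% of all genes were called. The list median of number 2 minus number 3 was -0.10 log2, 67 of 84 estimates were below 0, and number 2 was below number 3 in all 4 groups for 22 members and in 3 groups for 35. The gene counts rest on single libraries: without ligand number 2, 2668 genes differed between numbers 1 and 2 and 4952 between numbers 1 and 3, and without vehicle number 1 these were 71 and 1486. Without ligand number 3, 1300 genes differed between numbers 1 and 3 and 1 between numbers 2 and 3.

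Treatment differences of the list members are set beside these values. Against vehicle, the degrader lowered 25 of 84 members and raised 8 (39.3%, where 32.7% of all genes were called). Enzalutamide lowered KDM4B (-0.52 log2) and ERRFI1 (-0.49 log2) and raised IGFBP3 (0.33 log2), 3.57% of the members where 1.44% of all genes were called, and the ligand changed 0 where 0.237% were called. The list medians against vehicle were -0.20 log2 for enzalutamide, -0.15 for the ligand and -0.17 for the degrader, comparisons that share the vehicle libraries. These fits held no term for the replicate number, and the counts moved with it. With the number as a block of 3 levels, enzalutamide lowered 33 members and raised 2 (3.11% of all genes called), the ligand lowered 11 and raised 1 (1.01%), and the degrader lowered 39 and raised 16 (40.8%). Without the 4 number 1 libraries these were 3 and 1 (0.771% of all genes called), 0 and 0 (0.13%), and 27 and 10 (22.8%). LDHA was lower with enzalutamide than with vehicle at each number, at 922, 731 and 794 against 1205, 893 and 1004 CPM. In the fit with no term for the number, LDHA was not called for enzalutamide. The test of the interaction given next rests on 1 first replicate per group and 4 residual degrees of freedom. A count of 0 in it does not show that the difference was equal across treatments. The difference of first and later replicates depended on treatment for 0 members in a test of the interaction, where 0.00556% of genes (1 gene) were called by edgeR and 233 had an unadjusted p under 0.05, and DESeq2 called 8 genes in all.

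Over all genes tested, list members included, 674 genes were higher and 679 lower in the first replicates (7.6% of genes tested), and most of these differences were small. The median absolute difference of the 1353 called genes was 0.17 log2, 1299 were under 0.5 log2, and 11 reached 1 log2 (7 higher and 4 lower). These totals moved with single libraries. Without number 1 of vehicle, enzalutamide or degrader, 73, 115 and 140 genes were higher and 25, 95 and 96 lower, and without ligand number 2 the counts were 2389 and 2267. Without vehicle number 3, enzalutamide number 2 or 3, ligand number 1 or degrader number 3 they were 373 to 406 higher and 281 to 419 lower, and 426 were lower without vehicle number 2.

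Ligand number 2 stood apart from the other later libraries. In a principal component analysis of treatment-centred log2 CPM, the component with the largest share of variance (20.5%) placed the 4 first replicates at 8.06 to 15.4 and the other 7 later replicates at -18.3 to 0.913, and ligand number 2 at 10.2. Genes in the lowest quartile of transcript GC content took 19.97% of its counts, against 21.1% to 22.6% in the other 7 later libraries and 20.04% to 21.1% in the first replicates. For hypoxia genes it was not among the first replicates: its list mean was the lowest of the ligand group.

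The named genes with the largest rises, at 5 CPM or more, were again hypoxia genes for the most part. MIR210HG, the non-coding host transcript of the hypoxia-induced microRNA miR-210, was the largest, at 8.31 to 13.0 CPM in the first replicates and at 2.51 to 7.47 CPM in the later ones (median 4.18 CPM), with no overlap across treatments. The difference was 1.10 ± 0.18 log2 (adjusted p = 0.0125), and it was not called without number 1 of vehicle, enzalutamide or degrader. MIR210HG was not on the list. Neither were neuritin NRN1 (0.59 ± 0.11 log2), DPYSL4 (0.55 ± 0.09 log2) and FMC1, an assembly factor of the mitochondrial ATP synthase (0.46 ± 0.09 log2).

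The genes outside the list whose treatment-centred profile over the 12 libraries was most like the list mean were FUT11 (Pearson r = 0.984), NRN1 (0.982), BMF (0.981), SH3D21 (0.977) and CIART (0.976). These values describe 12 libraries, in which all genes share each library's depth and base composition, and carry no test. FUT11, a fucosyltransferase, was at 29.8, 20.7 and 23.1 CPM in vehicle numbers 1, 2 and 3 and differed by 0.41 ± 0.06 log2 (adjusted p = 0.0013). The circadian repressor CIART differed by 0.43 ± 0.07 log2, SH3D21 by 0.38 ± 0.08 log2 and the cell death protein BMF by 0.14 ± 0.04 log2. BMF was not called in 10 of the 12 fits that each left out 1 library and stood at 0.05 log2 (adjusted p = 0.518) with the GC and length trend described below removed, where SH3D21 stood at 0.31 log2 (adjusted p = 0.0679). SH3D21 was also not called without number 1 of vehicle or enzalutamide, NRN1 without any 1 of the 4 first replicates, DPYSL4 without vehicle number 1, and FMC1 without number 1 of vehicle, ligand or degrader. Of 68 called genes outside the list that were followed through these fits, 16 were called in all 12, and 48, 42, 21 and 43 were not called without number 1 of vehicle, enzalutamide, ligand and degrader.

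Among the genes named at 5 CPM or more, the falls were smaller than the largest rises. The monocarboxylate transporter SLC16A7 (-0.37 ± 0.08 log2), the lipid kinase DGKH (-0.35 ± 0.06 log2), the Fanconi anaemia protein FANCB (-0.33 ± 0.07 log2), the transcription factor ZBTB20 (-0.33 ± 0.05 log2), the focal adhesion protein LPP (-0.32 ± 0.05 log2), the zinc finger protein ZNF483 (-0.31 ± 0.07 log2) and PRTG (-0.31 ± 0.06 log2) were lower. BMS1P2 (-0.39 ± 0.09 log2), ANKRD20A5P (-0.30 ± 0.06 log2), PCDH11X (-0.32 ± 0.09 log2) and the non-coding PWAR5 (-0.34 ± 0.09 log2) were lower too, and the first 3 of these 4 have near-identical copies elsewhere in the genome, so that their counts are uncertain. PCDH11X and PWAR5 each lost their call in 8 of the 12 fits that each left out 1 library. Neither was called with the GC and length trend removed (edgeR, adjusted p = 0.0738 and 0.0917).

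Other lists are read against 3.79% of all genes higher and 3.81% lower, 7.6% in all. Cytosolic ribosomal protein genes were higher in 35 of 40 cases and lower in 0 (median 0.14 log2). RPL23, a large-subunit protein, was at 664 to 727 CPM in the first replicates and 582 to 645 CPM in the later ones, with no overlap (0.18 ± 0.03 log2, adjusted p = 0.00131), and RPS23 (0.17 ± 0.02 log2), RPS9 (0.18 ± 0.03 log2) and RPL30 (0.17 ± 0.03 log2) were called too. Ribosomal protein transcripts took 5.83% to 6.18% of all counts in the first replicates, 5.28% to 5.79% in number 2 and 5.19% to 5.65% in number 3. Without number 1 of vehicle, enzalutamide or degrader, 10, 15 and 18 of the 40 genes were called.

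The nuclear respiratory chain list held 14 higher and 0 lower of 37 (37.8%, with 3.79% of all genes higher, median 0.11 log2), among them the complex IV subunits COX7B (0.19 ± 0.03 log2) and COX6A1 (0.17 ± 0.03 log2) and the complex I subunits NDUFB8 (0.14 ± 0.03 log2) and NDUFA1 (0.15 ± 0.03 log2). Hosts of small nucleolar RNAs, whose spliced transcripts are short and non-coding, were higher in 7 of 14, with SNHG8 (0.17 ± 0.03 log2) and GAS5 (0.13 ± 0.03 log2) as examples. The median transcript length was 716 nt in the respiratory chain list, 713 nt in the ribosomal protein list and 766 nt among the hosts, against 1763 nt over all genes, and of the shortest quartile of all genes 7.97% were higher. Without number 1 of vehicle, enzalutamide or degrader, the respiratory chain count was 1, 1 and 2, and without ligand number 2 it was 26.

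Mitotic genes went the other way. Of 40 G2/M genes 11 were lower and 0 higher (27.5% called, median -0.07 log2). The median transcript GC content of this list was 42.6%, against 50.2% over all genes. In the lowest quartile of GC content, 10.4% of all genes were lower. The proliferation marker MKI67 was at 662, 720 and 740 CPM in vehicle numbers 1, 2 and 3 and at 432, 492 and 488 CPM with the degrader, a difference of -0.17 ± 0.02 log2 (adjusted p = 0.0013), and ASPM (-0.24 ± 0.04 log2), KIF14 (-0.21 ± 0.05 log2) and CENPF (-0.18 ± 0.03 log2) were lower too. CCNB1, which triggers mitosis, differed by -0.04 ± 0.03 log2 (adjusted p = 0.45). The G2/M count was 2, 4 and 3 without number 1 of vehicle, enzalutamide or degrader and 19 without ligand number 2. S phase genes held 2 lower and 0 higher of 36 (5.56%, against 7.6% of all genes), CLSPN at -0.16 ± 0.04 log2 and POLA1 at -0.11 ± 0.03 log2. POLA1 was not called in 11 of the 12 fits that each left out 1 library, nor CLSPN without number 1 of vehicle, enzalutamide or degrader.

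Stress and metabolic lists gave smaller counts, to be set against 7.6% of all genes called. The integrated stress response had 5 higher and 1 lower of 30 (20%, GDF15 at 0.27 ± 0.05 log2, NUPR1 at 0.19 ± 0.04 log2), while ASNS, its amino acid synthesis target, stood at 0.05 ± 0.03 log2 (adjusted p = 0.363). NRF2 targets had 4 higher of 22 (18.2%, OSGIN1 at 0.34 ± 0.08 log2, FTL at 0.17 ± 0.03 log2), cholesterol synthesis 7 of 25 (28%, TM7SF2 at 0.20 ± 0.04 log2, with HMGCS1 at 0.03 ± 0.04 log2 and an adjusted p of 0.689), and early response genes 5 of 30 (16.7%, DUSP1 at 0.20 ± 0.04 log2, with FOS at 0.17 ± 0.09 log2 and EGR1 at 0.02 ± 0.05 log2 not called). Autophagy genes had 4 higher of 34 (11.8%, SQSTM1 at 0.18 ± 0.03 log2, GABARAPL1 at 0.18 ± 0.05 log2), and ribosome biogenesis had 1 higher and 4 lower of 29 (17.2%, HEATR1 at -0.17 ± 0.03 log2). p53 targets had 3 higher and 2 lower of 27 (18.5%, CDKN1A at 0.14 ± 0.03 log2, MDM2 at -0.16 ± 0.04 log2), and metallothioneins, near-identical genes whose counts are uncertain, had 2 higher of 10, with MT2A at 0.13 ± 0.05 log2 (adjusted p = 0.0868).

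Few or none of the genes passed in the remaining lists. Glucose sensing held 0 of 9 called, with the glucose-responsive TXNIP at 0.06 ± 0.03 log2 (adjusted p = 0.246), and replication-dependent histones 0 of 11. Unfolded protein response (1 of 21), fatty acid synthesis (1 of 14), heat shock (2 of 20), YAP and TAZ targets (2 of 20), lysosome (3 of 38) and interferon response (1 of 28) each held 1 to 3 called genes in either direction, 3.57% to 10% of a list where 7.6% of all genes were called. Genes that respond to hormones in prostate cells counted 1 of 21, NDRG1, which is also on the hypoxia and glycolysis list. KLK3 (0.06 ± 0.05 log2), KLK2 (0.09 ± 0.04 log2) and FKBP5 (-0.06 ± 0.03 log2) were not called.

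**Figure D4:**
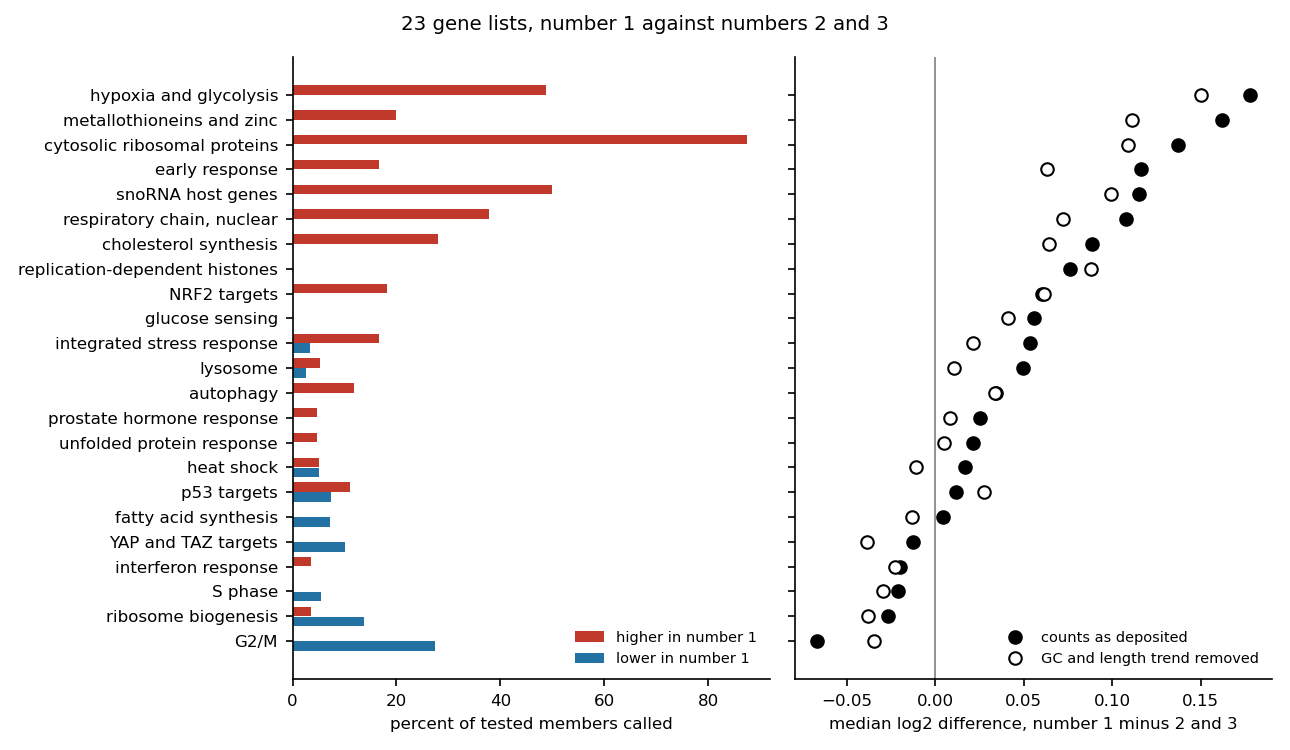
Share of tested members called higher (red) or lower (blue) in the first replicates for 23 gene lists (left, percent, bars from 0), and median log2 difference of each list (right) from the counts as deposited (filled) and after removal of each library's trend with transcript GC content and length (open). The hypoxia and glycolysis list has the highest median on both scales, and the ribosomal protein list has the largest share called.

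Genes called higher had a median transcript length of 985 nt and a median GC content of 58.4%, and genes called lower 3451 nt and 42.1%, where all tested genes had 1763 nt and 50.2% (GENCODE v29 transcripts, matched for 16007 of the 17801 genes). From the lowest to the highest quartile of GC content, the median difference was -0.07, -0.02, 0.02 and 0.08 log2, and 29, 80, 189 and 354 genes were higher against 416, 182, 48 and 3 lower. By quartile of length it was 0.03, 0.03, 0.00 and -0.05 log2. The GC trend was seen in the vehicle, enzalutamide and degrader groups (top quartile medians of 0.09 to 0.11 log2) and was weak in the ligand group (0.02 log2). In the ligand group the 2 later libraries lay on either side of number 1. Top-quartile genes took 19.2%, 20.2% and 18.0% of counts in ligand numbers 1, 2 and 3. Across groups the top quartile median was 0.046 log2 against number 2 and 0.11 log2 against number 3.

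**Figure D5:**
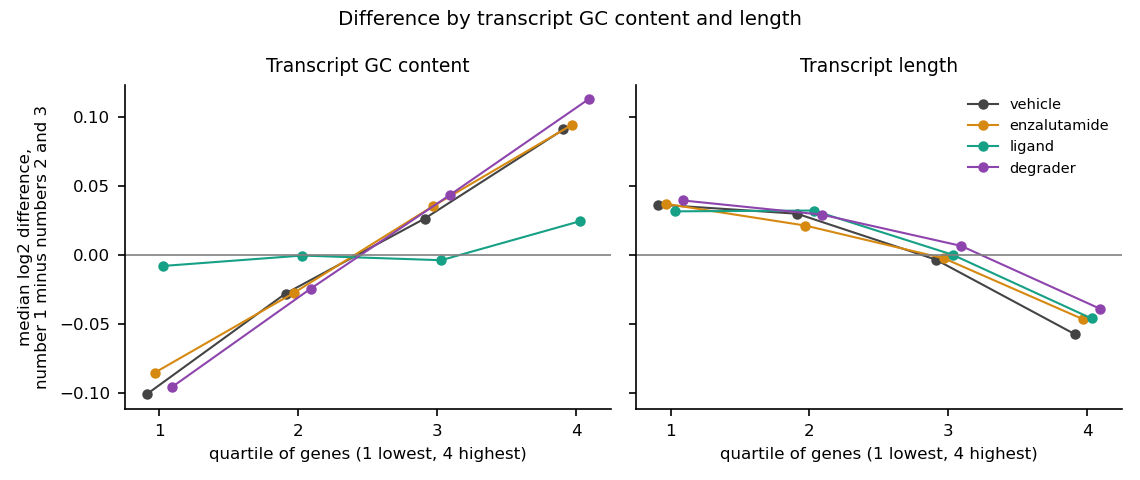
Median log2 difference of first minus later replicates for genes in quartiles of transcript GC content (left) and transcript length (right), by treatment group (colour). The lines rise with GC content for vehicle, enzalutamide and degrader and stay near 0 for the ligand, and they fall with length in all 4 groups.

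As a whole the hypoxia and glycolysis list was close to the average gene in both features. Its median length was 1785 nt and its median GC content 52.2% over its 84 members. Its roles differed, with medians of 1096 to 3332 nt and of 45% to 56.2% GC. Glucose uptake and glycolytic enzymes, the role with the highest share called, stood at 1372 nt and 56.2%. When each library's trend with GC content and length was removed, an alternative added after the data were seen, 36 of the 84 were higher and 0 lower and the median was 0.15 log2, and 28 genes were called both ways. ANKRD37 (0.87 log2), DDIT4 (0.66 log2), LDHA (0.35 log2), HK2 (0.23 log2) and KDM3A (0.38 log2) kept their calls. VEGFA, at 0.26 log2 (adjusted p = 0.159), and SLC16A3, at 0.52 log2 (adjusted p = 0.0541), were among 13 that lost theirs, with PFKFB3 at 0.48 log2 (adjusted p = 0.0533), NDUFA4L2, NDRG1, SPAG4, ALDOA, ENO2, ANKZF1, ZNF395 and RNF122. PFKL moved from 0.17 to 0.03 log2 and GPI from 0.14 to 0.05 log2, and these were the rest of the 13. Of the 13, ALDOA, ENO2, GPI, PFKFB3 and PFKL belong to the glucose uptake and glycolytic enzymes. Calls were gained by 8 members: PGK1 at 0.43 log2 (adjusted p = 0.0233) and EGLN1 at 0.25 log2 (adjusted p = 0.000161), P4HA1, PLOD2, CITED2, HIF1AN, INSIG2 and KDM4C. HIF1A moved from -0.10 to 0.02 log2 (adjusted p = 0.756).

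With the same trend removed, 574 genes in all were higher and 645 lower (6.85%), of which 328 and 338 were called in the same direction in the counts as deposited. Ribosomal protein genes then counted 31 of 40 higher, the respiratory chain 12 of 37 and G2/M genes 5 of 40 lower (median -0.03 log2), with MKI67 at -0.09 log2 (adjusted p = 0.0106) and ASPM at -0.10 log2 (adjusted p = 0.00658). CENPF at -0.07 log2 (adjusted p = 0.114), KIF14 at -0.07 log2 (adjusted p = 0.236), CLSPN at -0.10 log2 (adjusted p = 0.0635) and POLA1 at -0.02 log2 (adjusted p = 0.672) were no longer called. Of the 68 called genes outside the list, 14 lost their call in this way. The part of GC content and length in the differences with counts as deposited was not otherwise tested.

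Markers of cell types were summed per library as a check of the label. The summed level of 15 luminal prostate markers, all listed, was 3160 to 4022 TPM in the first replicates and 3000 to 3914 TPM in the later ones. Of the 15, 4 were called (3 higher, 1 lower), or 26.7% where 7.6% of all genes were called. Of 7 basal markers 4 were listed, without KRT5, KRT14 and TP63, at 49.2 to 57.1 TPM in the first and 52.5 to 62.0 TPM in the later replicates, and 1 of 7 blood and endothelial markers was listed, at 8.82 to 10.6 and 7.06 to 10.5 TPM. Stromal markers (10 of 11 listed, 1 higher, 10%) summed to 50.6 to 58.8 and 48.1 to 58.3 TPM. Neuroendocrine markers (6 of 10 listed, 2 higher, 33.3%) summed to 310 to 346 and 296 to 336 TPM. ENO2, which is also on the hypoxia and glycolysis list, was among the 2. The part of other cell types in the results was not tested, and in bulk RNA fewer cells of a type and less RNA per cell cannot be told apart.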

How the data were processed

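Messenger RNA of 12 cultures was measured with a stranded, poly(A)-selecting kit. Per the submitters' processing notes, reads went through HISAT2 and StringTie on GRCh37, in versions not given in the sources used here. The authors deposited 1 gene table with raw read counts, FPKM values and TPM values per library, in which every cell holds a count of at least 1. The deposited counts were used for all tests and the deposited TPM values for levels and marker sums. The deposited FPKM values were summed per library only, and 12 other per-sample columns were not used. Counts were matched to groups by the column names.

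Counts were filtered with filterByExpr (minimum count 10, minimum total 15), scaled by TMM and fitted with edgeR 4.0.16 (R 4.3.3) on treatment and number 1 against 2 and 3, with robust quasi-likelihood dispersion. Log2 CPM used a prior count of 2. Other fits used number as 3 levels, an interaction of number 1 with treatment, or treatment alone. DESeq2 1.42.0, limma-voom (limma 3.58.1), upper-quartile factors, no filter and fits without single libraries or groups were alternatives. On simulated counts (17741 genes), 76 of 100 changes of 1.25-fold and 91 of 100 of 1.5-fold were recovered, and 15 unchanged genes were called. The changes were placed only in genes above a minimum mean count. Counts were drawn independently for each gene and library, without GC or length trends shared within a library. These rates therefore hold for that setting only. Gene lists (23, with 658 symbols, 642 matched) and the members were chosen with earlier results of these data known. Named genes were a fixed list, the 12 largest rises and falls that number 1 showed in all 4 groups at 5 CPM or more, up to 4 called members per list (25 for hypoxia and glycolysis, all of whose members are counted) and the 5 genes most like the hypoxia mean. No 2 libraries of a group were alike within counting noise (chi-square per degree of freedom of 5.56 to 22.8). Depth was 55547270 to 77208794 counts. Regulators and members named beyond these rules (ALKBH5, BHLHE41, EGLN1, ERRFI1, GBE1, GPI, HIF1A, IGFBP3, KDM4B, LOX, PFKFB4, PFKL, PPFIA4, RBPJ, SPAG4, STC1, VHL, members named for a call that changed with the setting and, outside the list, DISC1) were chosen after their values were seen. The labels call the replicates biologically independent. One gene that the naming rule selects is not reported here.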

Additional observations from a re-analysis of the deposited data

Results flagged for a closer look

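DISC1 was the only gene whose difference between first and later replicates depended on treatment by edgeR (interaction, adjusted p = 0.00628). It was at 1.31, 0.383 and 0.201 CPM in vehicle numbers 1, 2 and 3 and at 0.0169, 1.41 and 1.05 CPM with enzalutamide. With the ligand it was at 0.300, 1.62 and 1.49 CPM, and with the degrader at 1.44, 0.543 and 0.221 CPM. Number 1 was thus high in 2 groups and low in the other 2. The value of 0.0169 CPM lies near the floor of the deposited table, where every cell holds a count of at least 1. The interaction test called 0 genes without enzalutamide number 1 and 0 without enzalutamide number 2.

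Sets of 4 values were examined for a value far from the other 3, and 7 of 179 sets held one, where chance gives about 1 in 20. In shares of counts, the highest-GC quartile of genes took 20.2% in ligand number 2 against 18.5% to 18.6% in the other number 2 libraries, and 20.1% in enzalutamide number 1 against 19.2% to 19.3% in the other number 1 libraries. The lowest-GC quartile took 21.1% in enzalutamide number 3 against 22.4% to 22.6% in the others of that number, and the longest quartile 22.2% in degrader number 1 against 21.5% in each of the other first replicates.

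Among genes, STC1 differed by 0.95 log2 in the degrader group and by 0.30 to 0.38 log2 in the others, ALKBH5 by 0.0043 log2 in the ligand group and by 0.14 to 0.16 log2 in the others, and HEATR1 by -0.22 log2 in the enzalutamide group and by -0.16 to -0.15 log2 in the others.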

How the results depend on the processing

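The hypoxia and glycolysis median stayed between 0.15 and 0.20 log2 in every alternative. It was 0.15 after removal of the GC and length trend, 0.196 without the ligand group, and 0.171 to 0.196 without single libraries. Counts of genes moved more. With DESeq2, 1045 genes were higher in the first replicates, 595 differed between numbers 1 and 2, 335 between numbers 2 and 3, 8 in the interaction, 403 for enzalutamide and 121 for the ligand, and without the filter 12 differed between numbers 2 and 3. Without treatment in the model 0 genes were called in either direction, and 1855 had an unadjusted p under 0.05. Without the vehicle, enzalutamide, ligand or degrader group, 30, 47, 1785 and 68 genes were higher and 9, 14, 1707 and 34 lower. Leaving out each library gave 73 to 2389 higher, 25 to 2267 lower, 71 to 2668 between numbers 1 and 2, 1300 to 4952 between numbers 1 and 3, 1 to 348 between numbers 2 and 3, 0 to 7 in the interaction, and 21 to 77 for the ligand, 173 to 306 for enzalutamide and 4580 to 6182 for the degrader against vehicle.

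Treatment calls changed with the number. Against vehicle, 255 genes were called for enzalutamide, 42 for the ligand and 5795 for the degrader. With number 1 as a covariate these were 423, 131 and 6763, and without the 4 number 1 libraries 136, 23 and 4012. With a replicate block of 3 levels they were 554, 180 and 7255, and the block gave 1129 genes higher and 1153 lower in number 1. The labels do not say that a number marks a shared batch, and the numbers were taken to pair the libraries only if every same-number pair of treatment-centred profiles correlated above 0.1. In 4 of 6 pairs of number 1 (0.0479 to 0.206), 0 of 6 of number 2 (-0.0281 to 0.0844) and 3 of 6 of number 3 (0.0763 to 0.196) this held, so the rule was not met. Different numbers gave -0.165 to 0.0726, and 11 of 12 libraries correlated best with one of their own number, a hint from the data and not from the design.

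Signs turned for 4 genes that were not called. After removal of the GC and length trend the values were -0.00565 log2 for EGR1, 0.00853 for FKBP5, 0.0165 for HIF1A and -0.0132 for KLK3. EGR1 was also at -0.0353 without the degrader group, -0.00805 without the vehicle group, -0.0314 without degrader number 1 and -0.0084 without vehicle number 1, within a range of -0.0353 to 0.0624 over its alternatives and up to 0.0623 without enzalutamide number 1. The causes were not tested. With 1 first replicate per group, precision depends on the spread between libraries, and for genes of low count, such as ANKRD37 and DISC1, on depth too.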
